A study of Mus musculus with 8 samples.

Results

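Mitochondrial ribosomal proteins were followed across 3 groups of sorted mouse intestinal epithelial cells. The members were the genes whose symbol begins with Mrpl or Mrps followed by a number, without pseudogene symbols. There were 77 of them among the 24013 gene symbols of the table, and all 77 passed the filter on low values, which 11190 genes passed in all. The rule used no measured value. By known structures 30 belong to the large subunit and have a bacterial counterpart, and 20 belong to the large subunit and are found in mitochondria only. A further 16 small-subunit proteins have a bacterial counterpart and 10 are specific to mitochondria. The last, Mrps36, carries a ribosomal name but is known as a component of the alpha-ketoglutarate dehydrogenase complex of the citric acid cycle.

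The mitochondrial ribosome translates the few messages of the mitochondrial genome, all of which encode subunits of the oxidative phosphorylation machinery. Its RNAs come from the mitochondrial genome, whereas every one of its proteins is encoded in the nucleus, made in the cytosol and imported. In the small intestine, absorptive enterocytes are rich in mitochondria, and Paneth cells, the antimicrobial secretory cells of the crypt base, devote most of their messenger RNA to defensins and lysozyme.

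RNA was sequenced from cells of Lyz1CreER; R26R-tdT mice, in which tamoxifen lets a Cre recombinase driven by the Lyz1 gene switch on the red protein tdTomato, so that only cells with Lyz1 activity at that moment, and their progeny, are marked. All mice were of mixed C57/BL6 and 129 background, were 8 to 14 weeks old and received 1 dose of 10 mg tamoxifen. Viable EpCAM-positive, CD45-negative, tdTomato-positive cells were sorted by the surface protein CD24. The groups were CD24+ cells of mice that were not irradiated (2 libraries), CD24+ cells taken 5 days after irradiation (3 libraries) and CD24− cells of irradiated mice (3 libraries). CD24− cells without irradiation were not analysed here, so any difference of the CD24− group from the non-irradiated libraries mixes gate with treatment. The labels do not say that libraries came from separate mice, and p-values therefore measure only the spread between these samples, which may be technical.

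The values are FPKM, that is a fragment density that takes account of how long a transcript is and how deeply each library was sequenced, and read numbers are unknown. A set of 45 Paneth products held lysozymes, defensins, a few others, and predicted genes included only because they lie among the alpha-defensin genes. It made up 91.3% and 84.0% of all FPKM in the non-irradiated CD24+ libraries. Its share was 80.6% to 84.7% in the irradiated CD24+ libraries and 2.02% to 13.9% in the CD24− libraries. These are shares of summed FPKM, not of reads, because FPKM is scaled to sequenced fragments. The sum itself ran from 1329221 to 1638347 in CD24+ libraries and from 540467 to 582799 in CD24− libraries. As deposited, the median tested gene stood 0.51 (log2) higher in irradiated CD24− than in irradiated CD24+ cells. It stood 1.58 higher after rescaling to TPM, which gives every library the same summed FPKM. Values of the members are given beside the shift of the median gene. Non-irradiated replicate 1 stood apart, with 94.951% of tested genes below their level in replicate 2. In the CD24− group all 10 enterocyte markers were higher and 15 of 16 Paneth markers lower than in irradiated CD24+ cells (limma, Benjamini-Hochberg adjusted p under 0.05). Of all tested genes 48.6% were called higher and 7.27% lower. The summed enterocyte markers were 727.4 to 1250 FPKM in irradiated CD24+ and 15272 to 34144 FPKM in CD24− libraries, no enterocyte marker was at 0 in any library, and the part of this cell mixture in the results below was not tested. Of the other lists, 8 of 8 stem markers and 6 of 8 tuft markers were called lower in CD24− cells as deposited, and the median cell cycle gene, with 0 of 20 called, stood at -0.34. Goblet markers went both ways, with 4 of 9 called higher and 2 lower, as did enteroendocrine markers, with 2 of 10 higher and 1 lower. In such bulk samples fewer cells of a type and less RNA per cell cannot be told apart.

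Levels within the family spanned a wide range in every library. Mrpl12, the factor-recruiting stalk protein of the large subunit, had the highest level in 7 of 8 libraries, at 24.9 and 57.7 FPKM in the non-irradiated CD24+ libraries, 52.6, 66.3 and 78.3 FPKM in the irradiated CD24+ libraries and 165, 181 and 143 FPKM in the CD24− libraries. In non-irradiated replicate 1 Mrpl30 was above it, at 26.2 FPKM. All CD24− libraries lay above all CD24+ libraries for Mrpl12. Mrpl30, Mrpl42, Mrps21 and Mrpl20 followed in level, with means of 96.0 ± 9.20, 99.2 ± 12.3, 107 ± 11.5 and 90.3 ± 8.56 FPKM (SD, n = 3) in CD24− cells. Whether these 4 genes differ in level from one another was not tested. At the other end, Mrpl57 had the lowest group means, with 1.06 and 2.13 FPKM, then 2.66, 3.70 and 2.84, then 5.80, 6.11 and 5.04 FPKM in the same order of groups. Mrpl17 and Mrpl19, both large-subunit proteins with bacterial counterparts, were also at the low end, with CD24− means of 5.72 ± 0.238 and 6.16 ± 0.993 FPKM (SD, n = 3), and Mrpl17 was below Mrpl57 in irradiated CD24+ replicate 2, where Mrpl19 was too, and in CD24− replicates 1 and 2.

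The order of the 77 genes by level was similar in all groups. Spearman's rho of the group means across the 77 genes was 0.985 between the CD24+ groups, 0.923 between the irradiated groups and 0.908 between non-irradiated CD24+ and CD24− cells. These are correlations across genes that share libraries and are descriptions only. Within each library the median large-subunit member and the median small-subunit member were close, at a ratio of 1.04 and 1.04, then 1.08, 1.07 and 1.12, then 1.11, 1.08 and 1.16.

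**Figure D1:**
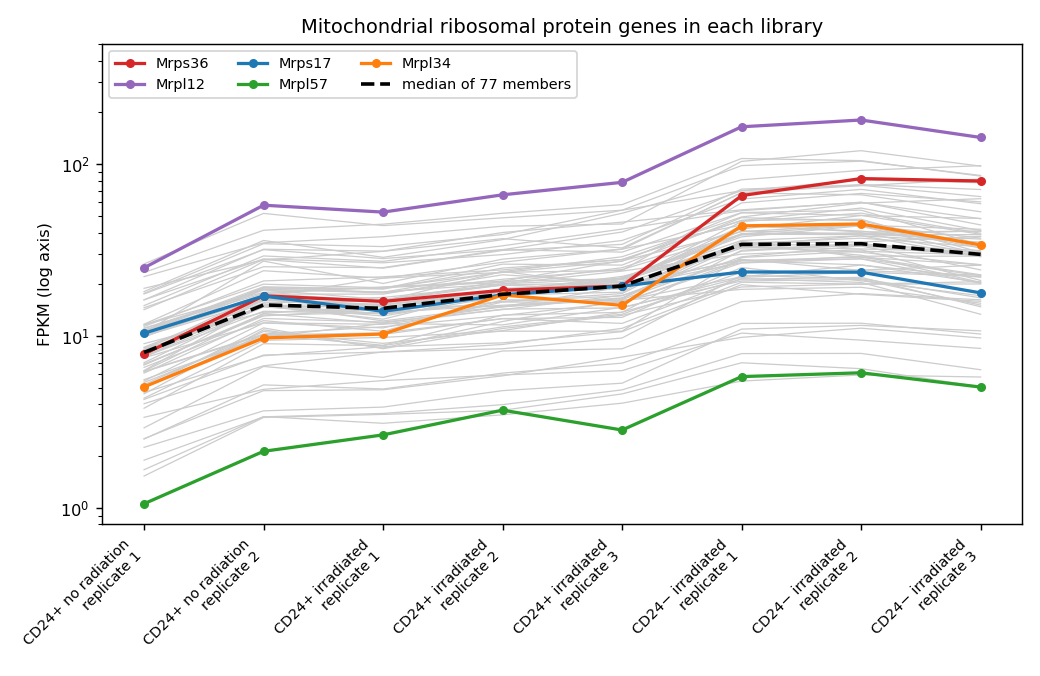
FPKM (log axis) of the 77 members in each of the 8 libraries; each grey line is a gene, coloured lines are named genes and the dashed line is the members' median. The median runs from 8.02 FPKM in non-irradiated replicate 1 to 34.4 FPKM in CD24− replicate 2, and Mrps36 crosses from the family's middle to near its top in the CD24− libraries.

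The first comparison asked how labelled cells outside the CD24+ gate differed from labelled CD24+ cells after irradiation. As deposited, 65 of the 77 members were called higher in CD24− cells and 0 lower, or 84.4%, against 48.6% of all tested genes called higher and 7.27% called lower (limma on log2(FPKM + 1), Benjamini-Hochberg adjusted p under 0.05). Counts and direction depended on the scale. After rescaling to TPM 77 were higher and 0 lower (90.3% and 2.06% of tested genes), and under median-of-ratios scaling 33 and 0 (29.6% and 28.6%). Under quantile normalization 9 were higher and 5 lower (24.8% and 30.7%). When libraries were set to an equal total outside the Paneth products, 4 were higher and 16 lower (15.9% and 51.7%). With the defensin AY761184 kept in that total, 9 were higher and 1 lower (21.6% and 33.4%). The members' median log2 fold change as deposited was 0.87, which was 0.36 above that of the median gene, and 73 of 77 members stood above the median gene. This lead depended on the filter and the scale. It was 0.72, with 77 of 77 members above, without a filter and 0.14, with 55 of 77, at a 5 FPKM filter. After quantile normalization it was 0.057, with 50 of 77. In 74 of 77 members every CD24− library exceeded every irradiated CD24+ library, against 59.1% of tested genes in that direction and 9.31% in the other, which no member showed.

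The counts by role and by family in this paragraph stand beside 48.6% of all tested genes called higher and 7.27% called lower. By role, 27 of 30 large-subunit members with bacterial counterparts were called higher as deposited, with a median log2 fold change of 0.92. Among the large-subunit members specific to mitochondria 16 of 20 were called, with a median of 0.83. In the small subunit 14 of 16 members with bacterial counterparts (median 0.89) and 7 of 10 mitochondria-specific members (median 0.73) were called higher. No role had a member called lower on the deposited scale. As deposited, cytosolic ribosomal proteins had 0 of 77 called higher or lower and a median of 0.40. Oxidative phosphorylation subunits encoded in the nucleus had 76 of 77 called higher and a median of 1.71. Counts of both families after rescaling are given below. The mitochondrial family thus lay between the other 2 families in median, a description for which no test was made.

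**Figure D2:**
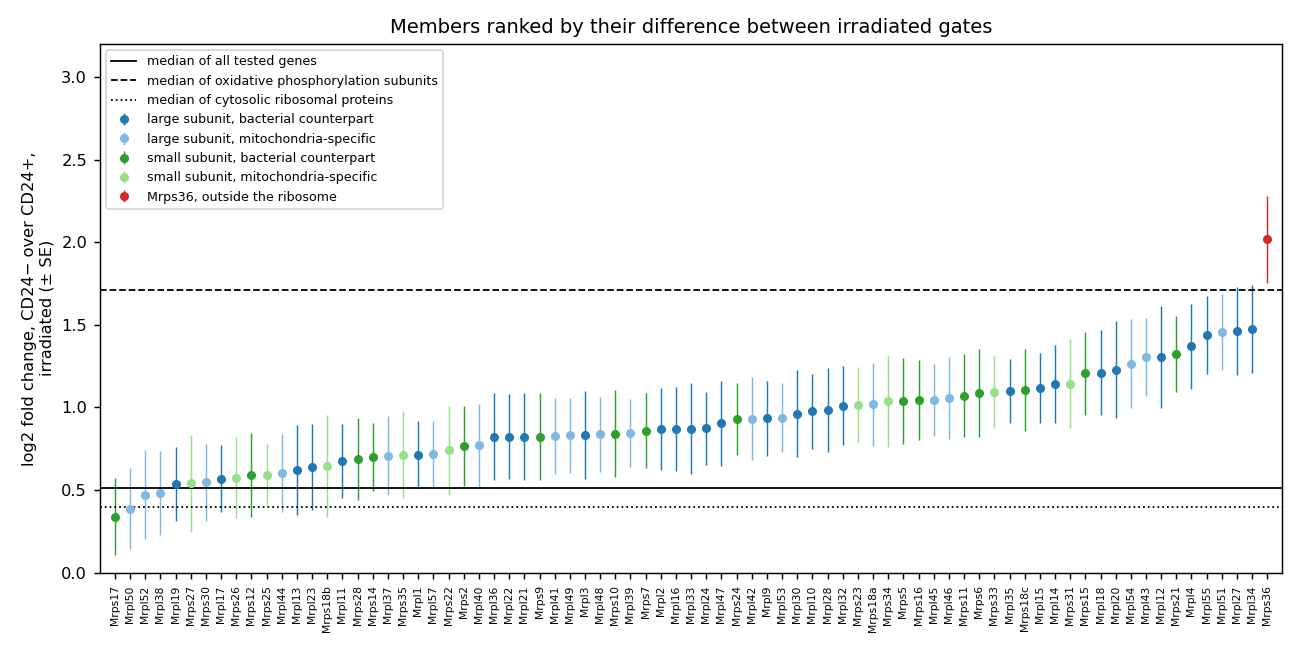
Log2 fold change (± SE from limma) of each member between irradiated CD24− and irradiated CD24+ cells on the deposited FPKM scale, ranked and coloured by role, with lines at the medians of 3 gene sets. Most members lie between the median of all tested genes (0.51) and that of the oxidative phosphorylation subunits (1.71), and Mrps36 lies above both at 2.02.

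Mrps36 had the largest difference of the family. It stood at 7.84 and 17.1 FPKM in non-irradiated CD24+, 15.9, 18.5 and 19.5 FPKM in irradiated CD24+ and 65.6, 82.4 and 79.7 FPKM in CD24− libraries. The irradiated groups did not overlap, and the gap between them was wider than either group's spread. Its log2 fold change was 2.02 (SE 0.26), or 4.05-fold on the log2(FPKM + 1) scale (limma, Benjamini-Hochberg adjusted p = 9.12e-05). It remained called higher at 1.40, 0.97 and 0.94 under median-of-ratios, quantile and equal-total scaling.

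The largest differences among ribosomal members were in the large subunit. Mrpl34, a small protein with a bacterial counterpart, stood at 10.3, 17.3 and 15.1 FPKM in irradiated CD24+ and 43.7, 44.8 and 33.9 FPKM in CD24− libraries, a log2 fold change of 1.48 (SE 0.27, limma, Benjamini-Hochberg adjusted p = 0.000731). Mrpl27, which in bacteria reaches toward the peptidyl transferase centre, stood at 21.7, 26.8 and 32.0 against 68.4, 74.9 and 81.9 FPKM, a change of 1.46 (SE 0.27). For Mrpl51, specific to mitochondria, the values were 19.1, 23.5 and 24.1 against 59.5, 67.5 and 60.3 FPKM, a change of 1.46 (SE 0.23). None of these 3 genes overlapped between the irradiated groups. Mrpl55 and Mrpl4, the latter a protein that lines the exit tunnel, differed by 1.44 (SE 0.24) and 1.37 (SE 0.26). Mrpl27, Mrpl51, Mrpl55 and Mrps36 were the 4 members called higher as deposited and under median-of-ratios, quantile and equal-total scaling. The same held for 15.9% of 11001 genes tested in all 4 of these settings. Mrpl34 missed the threshold at an equal total outside the Paneth products (0.41, adjusted p = 0.0524). Mrpl27 shares 75 exon bases with Eme1 on the opposite strand in another annotation (GENCODE), and the library kit kept no strand information, so their reads cannot be told apart there.

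At the lower end of the range stood Mrps17, a small-subunit protein with a bacterial counterpart, at 13.9, 17.3 and 19.5 FPKM in irradiated CD24+ and 23.6, 23.5 and 17.8 FPKM in CD24− libraries. CD24− replicate 3 fell within the CD24+ range. Its log2 fold change was 0.34 (SE 0.23, limma, Benjamini-Hochberg adjusted p = 0.24) and turned to -0.26, -0.54 and -0.72 under median-of-ratios, quantile and equal-total scaling, called lower in the last 2. Mrpl50, a mitochondria-specific large-subunit protein, stood at 18.1, 20.1 and 23.8 against 29.9, 31.7 and 21.0 FPKM, a difference of 0.39 (SE 0.25, adjusted p = 0.20). It was likewise called lower under the last 2 rescalings, at -0.57 and -0.68. Mrpl52, Mrpl38, Mrpl19 and Mrps27 completed the 6 smallest differences, between 0.47 and 0.54, with adjusted p from 0.0614 to 0.158 (limma, Benjamini-Hochberg), and each turned negative under at least 1 rescaling. The other members not called were Mrps30, Mrps26, Mrps12, Mrpl13, Mrpl23 and Mrps18b, of which Mrps26, Mrpl13 and Mrpl23 are named after their values were seen. With the replicate number as a block, Mrpl19, Mrps18b, Mrps12, Mrpl13, Mrpl23 and Mrps26 passed (adjusted p from 0.0307 to 0.0491). Just inside the threshold lay Mrpl44, related to the RNase III family, at 0.60 (adjusted p = 0.0494), and just outside lay Mrpl23 at 0.64 (adjusted p = 0.0582). Without non-irradiated replicate 1 or without non-irradiated replicate 2, which enter this comparison only through the shared estimate of spread, 74 members were called (54.9% and 55% of tested genes called higher), the exceptions being Mrps17, Mrpl50 and Mrps27. The call of Mrpl44 was lost without CD24− replicate 1 or 2 or any one irradiated CD24+ replicate (adjusted p from 0.0835 to 0.168), that of Mrpl17 without any one CD24− replicate or CD24+ replicate 1 or 2 (0.0579 to 0.126), and that of Mrpl36 without CD24− replicate 1 or 2 or CD24+ replicate 1 (0.0721 to 0.0898).

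The Mrps18 genes encode 3 related proteins that take different places in the ribosome. Mrps18c, the counterpart of the bacterial protein in the small subunit, was called higher on the deposited scale at 1.11 (SE 0.25), with 28.2, 31.8 and 40.3 FPKM in irradiated CD24+ and 70.0, 76.0 and 71.2 FPKM in CD24− libraries, and stood at -0.025 after quantile normalization. Mrps18a, which sits in the large subunit, was called higher at 1.02 (SE 0.25) as deposited and stood at -0.048 at an equal total outside the Paneth products. Mrps18b, mitochondria-specific, was at 0.65 (SE 0.31, limma, Benjamini-Hochberg adjusted p = 0.0978) and at -0.39 after quantile normalization. Whether the 3 differ from one another was not tested.

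Ratios within a library do not depend on its scale. These ratios, and the counts relative to the members' median that follow, were chosen after the data were seen. The median oxidative phosphorylation subunit stood at 4.32 and 4.10 times the median member in non-irradiated CD24+, 4.25, 4.09 and 3.78 times in irradiated CD24+ and 6.71, 7.80 and 7.46 times in CD24− libraries. The CD24− libraries lay above all CD24+ libraries. The median cytosolic ribosomal protein stood at 28.7 and 29.4, then 32.9, 31.5 and 26.7, then 21.8, 23.1 and 16.6 times the median member. Here the CD24− libraries lay below all CD24+ libraries. Mrps36 relative to the median member went from 0.978 and 1.13, and 1.10, 1.06 and 1.0, to 1.92, 2.39 and 2.67, while Mrps17 went from 1.29 and 1.13, and 0.961, 0.992 and 1, to 0.691, 0.683 and 0.597. The counts were taken on log2(FPKM + 1), as differences from the members' median of each library. By them 17 members were higher in every CD24− than in every irradiated CD24+ library and 19 were lower, against 19.3% and 50.1% of tested genes. Unlike the ratios, these counts depend on the scale of a library, because the added 1 shrinks the changes of low genes.

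**Figure D3:**
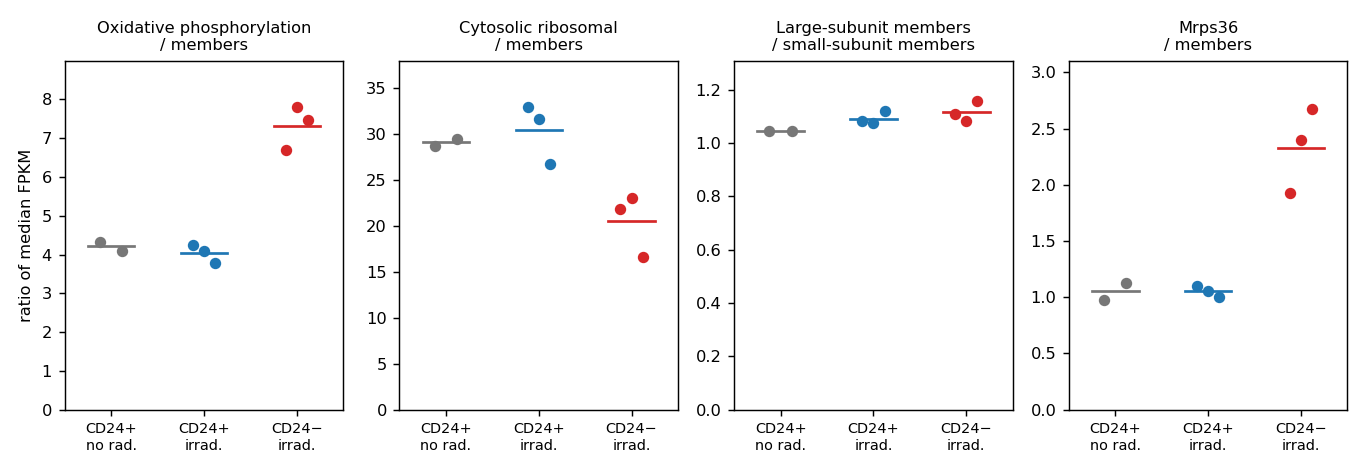
Ratio of median FPKM within each library, for 3 pairs of gene sets and for Mrps36 over the members; each point is a library and each bar the mean of a group, with axes from 0. Oxidative phosphorylation subunits over members run from 3.78 to 4.32 in CD24+ and from 6.71 to 7.80 in CD24− libraries, and large- over small-subunit members from 1.04 to 1.16 throughout.

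As a share of all FPKM outside the Paneth products, the members summed to 0.488% and 0.568% in non-irradiated CD24+, 0.573%, 0.590% and 0.658% in irradiated CD24+ and 0.609%, 0.576% and 0.521% in CD24− libraries. On this measure the irradiated groups overlapped. The oxidative phosphorylation subunits took 3.03% to 3.17% of that total in irradiated CD24+ and 4.53% to 5.22% in CD24− libraries, without overlap. Cytosolic ribosomal proteins took 15.9% to 17.5% and 7.61% to 11.9%. The members' median log2 fold change was 2.11 after rescaling to TPM, 0.26 under median-of-ratios scaling, -0.023 after quantile normalization and -0.18 at the equal total. It stayed above that of the median gene in each of these, by between 0.057 (quantile) and 0.54 (TPM). Oxidative phosphorylation subunits stayed mostly higher, with 75, 50 and 67 of 77 called higher under the last 3 rescalings. The shares of all tested genes called higher there were 29.6%, 24.8% and 15.9%. Cytosolic ribosomal proteins had 76 of 77 called higher in TPM, against 90.3% of tested genes. Under the last 3 rescalings 0 were higher and 1, 29 and 69 were lower, against 28.6%, 30.7% and 51.7% of tested genes lower.

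**Figure D4:**
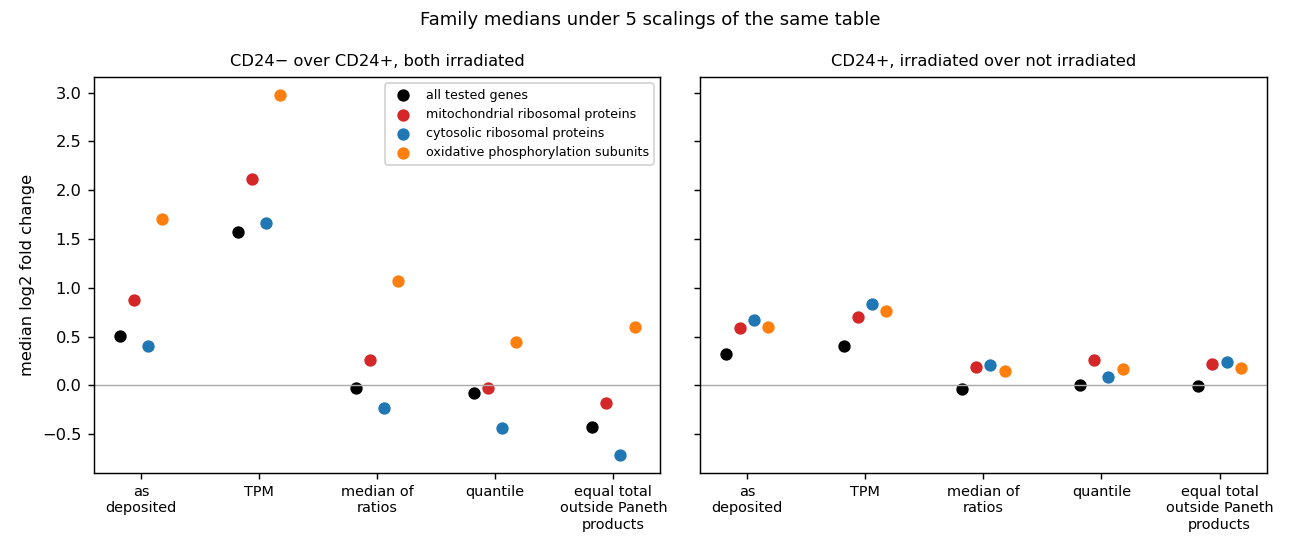
Median log2 fold change of 4 gene sets on the deposited scale and after 4 rescalings of the same table, for both comparisons named above the panels. The members' median lies at or above that of all tested genes in every setting, crosses 0 in the left panel under quantile and equal-total scaling, and stays above 0 in the right panel.

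Mrps36 was next set beside the enzyme complex to which it is known to belong, a comparison chosen after its values were seen. Ogdh, the catalytic first component of alpha-ketoglutarate dehydrogenase, stood at 28.2, 32.1 and 29.8 FPKM in irradiated CD24+ and 139, 132 and 164 FPKM in CD24− libraries, a log2 fold change of 2.23 (SE 0.26). Dlst, its second component, stood at 31.9, 36.1 and 38.6 against 150, 145 and 168 FPKM, a change of 2.09 (SE 0.29). Dld, the third component, which other dehydrogenase complexes share, changed by 1.29 (SE 0.25). All 3 were called higher (limma, Benjamini-Hochberg adjusted p = 4.13e-05, 0.000122 and 0.00104), and Ogdh and Dlst also under every rescaling, whereas Dld stood at 0.078 and 0.19, not called, under quantile and equal-total scaling. Of 14 other genes of the citric acid cycle and pyruvate dehydrogenase, the differences ran from -0.12 for Idh2, which was not called, to 2.86 for Mdh2. Idh2 was called lower under median-of-ratios, quantile and equal-total scaling, and higher in TPM (1.12, limma, Benjamini-Hochberg adjusted p = 0.00259).

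**Figure D5:**
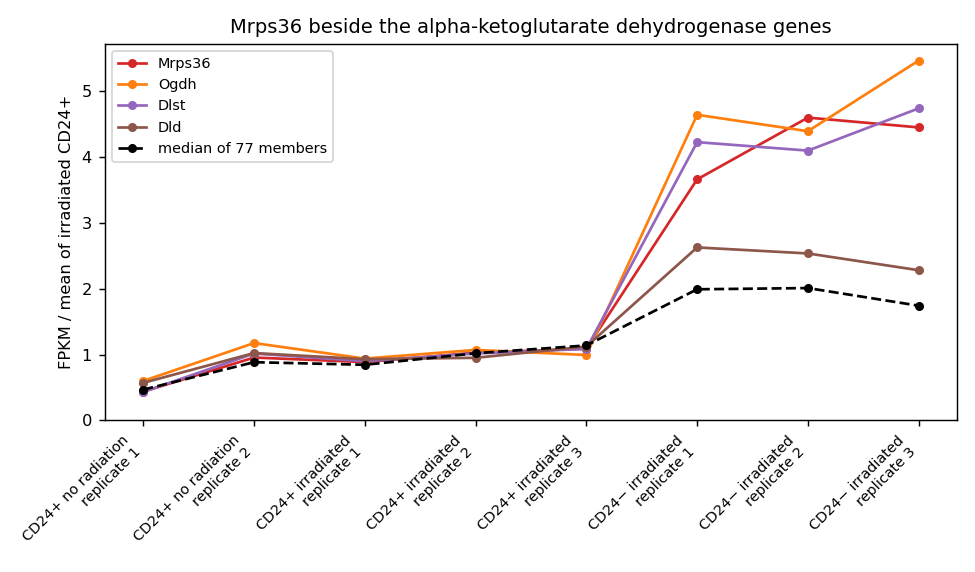
FPKM of Mrps36, Ogdh, Dlst and Dld and the median of the 77 members in each library, divided by the mean of the irradiated CD24+ libraries; the axis starts at 0. In the CD24− libraries Mrps36, Ogdh and Dlst lie higher than Dld and the members' median.

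The second comparison asked what irradiation was associated with inside the CD24+ gate. No member was called, at 0 of 77 and 0% of all tested genes (limma, Benjamini-Hochberg adjusted p under 0.05), while 34 of 77 members had an unadjusted p under 0.05 in the higher direction, against 12.2% of tested genes. The members' median log2 fold change was 0.59, or 0.26 above the median gene, and 76 of 77 members stood above the median gene. In 29 of 77 members every irradiated library exceeded both non-irradiated libraries, against 34.2% of tested genes, a share close to the members' own, and no member showed the other direction (1.13% of tested genes). Cytosolic ribosomal proteins had a median of 0.68 and oxidative phosphorylation subunits one of 0.60. Marker lists of other cells differed as well, with none of their genes called: the median was 1.75 for 10 enteroendocrine markers, -0.99 for 8 tuft markers and 0.77 for 20 cell cycle genes, all 20 of which stood above the median gene. The summed enteroendocrine markers were 221 and 264.99 FPKM without irradiation and 374, 1286 and 1465 FPKM after it, with no marker at 0. Their part in the members' difference was not tested. The result depended on the 2 non-irradiated libraries: without replicate 2, 76 members were called higher, against 46.4% of tested genes, and without replicate 1 none was called and the median stood only 0.11 above the median gene. Replicate 1 was below replicate 2 in 77 of 77 members.

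Mrpl34 had the largest difference here, at 5.06 and 9.74 FPKM without irradiation and 10.3, 17.3 and 15.1 FPKM after it, a log2 difference of 0.89 (SE 0.30, limma, Benjamini-Hochberg adjusted p = 0.348). Its groups did not overlap. Mrpl38, at 6.86 and 13.1 against 14.4, 18.9 and 20.2 FPKM, differed by 0.83 (SE 0.28). Mrps6, Mrpl9, Mrpl12 and Mrpl52 followed, with differences between 0.73 and 0.79, and none passed the test. Mrps17, Mrpl30, Mrpl17, Mrps25, Mrps10 and Mrpl32 had the smallest differences, from 0.31 to 0.46, and Mrps17 and Mrpl30 turned negative under median-of-ratios, quantile and equal-total scaling. Mrps36 stood at 0.58 (SE 0.30), close to the family's median.

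Between CD24− cells of irradiated mice and CD24+ cells without irradiation, gate and irradiation cannot be told apart. All 77 members were called higher and 0 lower as deposited, against 65.7% and 4.99% of tested genes, and in all 77 the libraries did not overlap, against 70.1% of tested genes higher and 6.17% lower, with a median log2 fold change of 1.47 against 0.88 for the median gene. Rescaling changed the split here too: 47 were higher and 1 lower under median-of-ratios scaling (27.3% and 25.9% of tested genes), 19 and 2 under quantile normalization (24.3% and 26.2%), and 11 and 2 at an equal total outside the Paneth products (15.3% and 45.9%). In the last 2 settings the members' share called higher was close to that of all tested genes. Mrps36 (2.60, SE 0.30), Mrpl34 (2.36), Mrpl27 (2.09), Mrpl12 (2.06), Mrpl55 (2.04) and Mrpl4 (2.002) differed most. The smallest differences were those of Mrps17 (0.65, adjusted p = 0.0436 by limma with Benjamini-Hochberg adjustment), Mrpl50 (0.88), Mrpl17 (0.97), Mrps25 (1.04), Mrpl44 (1.09) and Mrpl19 (1.10). The call of Mrps17 was lost without non-irradiated replicate 1 (adjusted p = 0.288), CD24− replicate 1 or 2 or any one irradiated CD24+ replicate (0.0544 to 0.12), and that of Mrpl50 without non-irradiated replicate 1 (0.117) or CD24− replicate 2 (0.0546). Called higher as deposited and under median-of-ratios, quantile and equal-total scaling were 10 of 77 members, against 15.4% of 11001 genes. This comparison shares its libraries with the other 2, and the group means of all 77 members were lowest in non-irradiated CD24+ and highest in CD24− cells on the deposited scale.

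Proteins of the mitochondrial ribosome that carry other names were read from a separate list. Of 6 found, 3 were called higher in CD24− than in irradiated CD24+ cells as deposited, a share close to the 48.6% of all tested genes. Aurkaip1, a small-subunit protein, stood at 20.8, 25.9 and 24.99 against 51.4, 56.2 and 45.5 FPKM, a log2 fold change of 1.06 (SE 0.22), and was at -0.016 at the equal total. Ict1, a large-subunit protein that can release stalled chains, was called at 0.91 (SE 0.26), and Dap3, a GTP-binding small-subunit protein, at 0.63 (SE 0.22). Ict1 lost its call without CD24+ replicate 1 (limma, Benjamini-Hochberg adjusted p = 0.0583), and Dap3 without CD24− replicate 1 or 2 or any one irradiated CD24+ replicate (0.0643 to 0.113). Chchd1 (0.55), Ptcd3 (0.46) and Gadd45gip1 (0.39) did not pass. All but Aurkaip1 turned negative after quantile normalization, and all 6 did so at the equal total. Under irradiation within the CD24+ gate the 6 lay between 0.42 and 0.70, and none passed.

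Translation factors of mitochondria had 6 of 11 called higher and 0 lower in CD24− against irradiated CD24+ cells, with a median of 0.70, a share near the 48.6% of all tested genes called higher. Tufm, the elongation factor that delivers transfer RNA, stood at 17.9 and 33.6 FPKM without irradiation, 38.6, 48.0 and 53.7 FPKM in irradiated CD24+ and 117, 114 and 106 FPKM in CD24− libraries. The 3 groups did not overlap, and the log2 fold change between irradiated groups was 1.26 (SE 0.26, limma, Benjamini-Hochberg adjusted p = 0.00168), which was 0.024 after quantile normalization and was then not called. Mtif3, an initiation factor, changed by 1.18 (SE 0.17), and Mtfmt, which formylates the initiator transfer RNA, by 1.11 (SE 0.19). Both were not called at the equal total (0.25 and 0.20). After irradiation in CD24+ cells, Tufm differed by 0.89 (SE 0.29), Mtif2, another initiation factor, by 0.56, and Mrrf, the recycling factor, by 0.57, with none called.

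Assembly factors had 7 of 24 called higher and 0 lower, against 48.6% and 7.27% of all tested genes, with a median of 0.40 against 0.51 for the median gene. Nsun4, a methyltransferase of ribosomal RNA, stood at 2.31, 2.76 and 3.54 against 7.19, 6.20 and 5.37 FPKM, a change of 0.91 (SE 0.20). Mpv17l2 (1.14, SE 0.26) and Malsu1 (0.87, SE 0.21), both large-subunit assembly factors, were called as well, though neither was called under median-of-ratios or quantile scaling, and Malsu1 turned negative at the equal total. Noa1, Fastkd2 and Mterfd2 had the smallest unadjusted p of this list in the irradiation comparison, at 0.67, 0.62 and 0.42, and were not called.

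Genes of mitochondrial transcription and messenger RNA handling had 7 of 9 called higher, against 48.6% of all tested genes, with a median of 0.77. Polrmt, the mitochondrial RNA polymerase, changed by 0.75 (SE 0.19), and the RNA-binding proteins Ptcd1 and Ptcd2 by 1.01 (SE 0.19) and 0.86 (SE 0.21). Polrmt and Ptcd2 turned negative at the equal total, and Ptcd1 stood at 0.023 there. Tfam, which packages mitochondrial DNA, was at 10.2, 12.02 and 11.3 against 16.9, 15.3 and 9.14 FPKM, so that the groups overlapped, with a log2 difference of 0.24 (SE 0.27, limma, Benjamini-Hochberg adjusted p = 0.47). It turned negative under 3 rescalings. Lrpprc, which stabilises mitochondrial messages, had the largest difference of this list after irradiation (0.84, SE 0.29, not called).

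Known regulators of mitochondrial biogenesis went in both directions, with 4 of 9 higher and 2 lower, against 48.6% and 7.27% of all tested genes. Ppargc1a, the coactivator PGC-1alpha, stood at 0.453 and 1.20 FPKM without irradiation, 0.778, 0.709 and 0.450 FPKM in irradiated CD24+ and 4.48, 6.09 and 5.30 FPKM in CD24− libraries, a log2 fold change of 1.93 (SE 0.20, limma, Benjamini-Hochberg adjusted p = 1.76e-05). Its partner receptor Esrra stood at 13.9, 16.8 and 12.8 against 83.6, 92.5 and 78.1 FPKM, a change of 2.47 (SE 0.27). Ppargc1b changed by 1.26 (SE 0.20), and Gabpa, an ETS factor, by 0.63 (SE 0.20), which was -0.35 at the equal total. Ppargc1a and Esrra were called higher under the 3 other scalings as well. Pprc1, at 7.37, 8.66 and 7.58 against 6.43, 3.18 and 2.62 FPKM, and Myc, at 10.6, 14.4 and 11.8 against 8.56, 5.97 and 3.04 FPKM, were called lower, at -0.88 (SE 0.31) and -1.03 (SE 0.32). After rescaling to TPM they stood at 0.19 and 0.087, not called. The call of Myc was lost without CD24− replicate 3 (adjusted p = 0.0577) or CD24+ replicate 2 (0.0585), that of Pprc1 without CD24− replicate 2 or 3 or CD24+ replicate 2 or 3 (0.0503 to 0.0917), and that of Gabpa without CD24− replicate 1 or 2 or CD24+ replicate 1 or 2 (0.0519 to 0.0713). Nrf1 (0.33) and Yy1 (0.33) were not called and turned negative under median-of-ratios, quantile and equal-total scaling. Pprc1, Gabpa, Nrf1 and Yy1 are named after their values were seen.

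Promoter sequence was read for the members, and a link between motifs and the differences above was not tested. Promoter windows from RefSeq (GRCm38.p6), each with 250 bases before and 50 after a start site, were matched for 68 of the 77 members. On either strand GCGCANGCG, a motif of NRF1, was found for 16 of the 68 genes (23.53%), against 16.03% of tested genes and 7.034% of all genes with a window. CCGGAAG, an ETS motif bound by GABPA, was found for 25 (36.76%, against 21.21% and 9.928%), and ATGGCGGC, a YY1 motif, for 12 (17.65%, against 6.028% and 2.605%). At least 1 of these was present for 41 of 68. Among oxidative phosphorylation genes with a window, the NRF1, ETS and YY1 motifs were found for 28.17%, 23.94% and 8.451%. Among cytosolic ribosomal protein genes the shares were 14.04%, 42.11% and 7.018%. The members' share was below that of oxidative phosphorylation genes for NRF1 and below that of cytosolic ribosomal protein genes for ETS. For YY1 it was above both. Matches are a description of letters, not of binding, and some windows hold more than 1 motif. The 120 bases just before the start site are printed for the member highest in level in most libraries, for the 5 members with the largest differences between the irradiated groups as deposited, and for the member with the smallest, in the direction of transcription and with motif letters in capitals. In Mrpl12 (chr11:120484517-120484636, plus strand) the capitals mark the NRF1 motif, read on the other strand.
Mrpl12: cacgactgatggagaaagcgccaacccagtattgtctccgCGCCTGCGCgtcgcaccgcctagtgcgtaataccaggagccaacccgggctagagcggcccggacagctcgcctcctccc
In Mrpl34 (chr8:71464806-71464925, plus strand), Mrpl27 (chr11:94653671-94653790, plus strand) and Mrpl51 (chr6:125192080-125192199, plus strand) they mark the ETS motif. The window of Mrpl27 also holds the YY1 motif, after the start site.
Mrpl34: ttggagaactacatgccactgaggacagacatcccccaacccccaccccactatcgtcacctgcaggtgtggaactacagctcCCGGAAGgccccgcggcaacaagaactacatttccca
Mrpl27: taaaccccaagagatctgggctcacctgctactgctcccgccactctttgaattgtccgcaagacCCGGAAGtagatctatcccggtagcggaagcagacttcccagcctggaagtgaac
Mrpl51: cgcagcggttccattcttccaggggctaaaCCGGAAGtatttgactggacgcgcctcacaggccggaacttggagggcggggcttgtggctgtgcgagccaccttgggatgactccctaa
In Mrps36 (chr13:100744660-100744779, minus strand), which had the largest difference, Mrpl55 (chr11:59202366-59202485, plus strand) and Mrps17 (chr5:129715377-129715496, plus strand), which had the smallest, none of the 3 motifs was found in the window.
Mrps36: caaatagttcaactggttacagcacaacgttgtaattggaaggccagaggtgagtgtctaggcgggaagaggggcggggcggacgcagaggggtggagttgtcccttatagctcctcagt
Mrpl55: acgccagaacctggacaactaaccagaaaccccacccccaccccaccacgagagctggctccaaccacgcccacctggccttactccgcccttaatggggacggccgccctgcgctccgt
Mrps17: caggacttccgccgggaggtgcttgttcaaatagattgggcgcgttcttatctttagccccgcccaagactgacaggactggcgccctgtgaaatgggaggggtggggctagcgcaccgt

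The genes whose pattern over the 8 libraries was most like the members' mean were Ngdn, Wrap53, Rrp7a, Med6 and Fkbp1a, by Pearson's r of log2(FPKM + 1) (0.998 to 0.999 over 8 libraries). An r above 0.9 was reached by 46.0% of non-member genes, all of which share each library's scale with the members, and the likeness is a description. Among members the r with the members' mean ran from 0.920 for Mrps17 to 0.999 for Mrpl12. Lastly, 25 of 77 members share exon bases with another gene in GENCODE, 10 of them at least 50 bases with a tested protein-coding gene. Mrps25 with Nr2c2 (3533 bases) and Mrpl19 with Gcfc2 (1962 bases) share the most, and the values of these members are uncertain to that extent.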

How the data were processed

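Per the labels, libraries of the sorted cells were made with the TruSeq RNA v2 kit, which does not mark the strand. The authors deposited FPKM per gene and library. Per the submitters' processing notes the tools were StringTie 1.3.4 and TopHat2 2.1.0 on mm9. The annotation is not given in the sources used here. The members and all gene lists were chosen with earlier results of these data known.

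From the 24015 rows, repeated symbols were summed (24013 symbols) and genes kept that reached 1 FPKM in 2 or more libraries (11190). Values were transformed as log2(FPKM + 1), which understates changes of low genes. All 8 libraries were fitted with limma 3.58.1 in R 4.3.3 (mean-variance trend, no replicate block), and a call is an adjusted p (Benjamini-Hochberg) under 0.05. SE is limma's moderated standard error. The script was tested on simulated data. Sets are described by counts and medians beside all tested genes, with no set test.

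Named members are, per comparison, the 6 largest and 6 smallest differences, the 5 highest and 3 lowest levels and 10 fixed genes, with up to 3 genes by p from each pathway list and Tufm, Tfam, Ppargc1a and Myc. Alternatives were a pseudocount of 0.1, no filter, a 5 FPKM filter, TPM, median-of-ratios, quantile and equal-total scaling, 2-group fits, array weights, a robust fit, a replicate block and leaving out each library. The equal total leaves out 45 Paneth products. The set had 44 genes when first run, and the defensin AY761184 was added after those results were seen, so both forms are given in the closing section. Residuals of same-numbered irradiated CD24+ and CD24− libraries correlated across genes at r = 0.366, 0.231 and 0.402. The numbers were therefore taken to pair samples in the replicate-block alternative only, although no label ties a number to a mouse. That block also joined non-irradiated libraries to irradiated ones of the same number, a pairing that was not checked. Plots used matplotlib 3.10.9 (Python 3.11.15).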

Additional observations from a re-analysis of the deposited data

How the results depend on the processing

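The scale given to a library decided most calls. Between the irradiated gates 65 members were called as deposited, 33 under median-of-ratios scaling (33 higher), 14 under quantile normalization (9 higher, 5 lower) and 20 at the equal total outside Paneth products (4 higher, 16 lower). That last alternative was first run with AY761184 in the total, which gave 10 (9 higher, 1 lower). Across all tested genes the same settings gave 48.6%, 29.6%, 24.8%, 15.9% and 21.6% higher, and 7.27%, 28.6%, 30.7%, 51.7% and 33.4% lower. Against non-irradiated CD24+ cells 77, 48, 21, 13 and 27 members were called, with 65.7%, 27.3%, 24.3%, 15.3% and 23.0% of tested genes higher and 4.99%, 25.9%, 26.2%, 45.9% and 22.4% lower. After rescaling to TPM all 77 members were called higher in both comparisons, against 90.3% and 94.1% of tested genes higher and 2.06% and 1.66% lower. The members' median relative to the median gene was 0.36 between the irradiated gates and moved to 0.72 without a filter, 0.14 with the 5 FPKM filter, 0.54 in TPM and 0.057 after quantile normalization. Against non-irradiated cells it was 0.59 and moved to 1.08, 0.35, 0.79 and 0.27, and to 0.43 at the equal total. For irradiation it was 0.26 and moved to 0.40 without a filter. It stayed above 0 in all 19 alternatives fixed at the start and in the added one. Leaving out 1 library at a time gave 44 to 74 members called between the irradiated gates, 0 to 76 for irradiation (76 without non-irradiated replicate 2) and 73 to 77 against non-irradiated cells, with a lone library taken to vary as the remaining groups do. The relative medians then ran from 0.32 to 0.44, from 0.11 to 0.40 and from 0.49 to 0.75. The replicate block called 71, 0 and 77 members in the same order, and beyond the 6 members named with it in the report it changed no call of a named gene. Its last 2 counts also rest on joining non-irradiated to irradiated libraries by number, a pairing that was not checked. Over the 172 single-gene results, 197 of 3433 recomputed values changed sign. The cause was not tested beyond the scalings themselves.

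Rescaling to TPM reversed Myc (0.087), Pprc1 (0.19) and Idh2 (1.12) between the irradiated gates, and Pprc1 (0.61) and Myc (0.83) between CD24− and non-irradiated CD24+ cells. Median-of-ratios scaling reversed Ogdh (-0.21), Gabpa (-0.15), Mrps17 (-0.12), Dld (-0.078), Idh2 (-0.078), Pprc1 (-0.075), Mrpl30 (-0.061), Yy1 (-0.053), Aurkaip1 (-0.016) and Nrf1 (-0.0016) for irradiation within CD24+ cells, Tfam (-0.35), Yy1 (-0.27), Mrps17 (-0.26), Mrpl50 (-0.22), Gadd45gip1 (-0.16), Nrf1 (-0.15), Mrpl52 (-0.15), Ptcd3 (-0.14), Mrpl38 (-0.13), Chchd1 (-0.073), Mrps27 (-0.054), Mrps30 (-0.051), Mrps26 (-0.031), Mrps12 (-0.019) and Mrpl13 (-0.0021) between the irradiated gates, and Idh2 (-0.82), Mrps17 (-0.39), Yy1 (-0.33), Tfam (-0.19), Mrpl50 (-0.17), Nrf1 (-0.15) and Gabpa (-0.079) between CD24− and non-irradiated CD24+ cells. Quantile normalization reversed Ogdh (-0.18), Gabpa (-0.13), Mrps17 (-0.075), Idh2 (-0.067), Dld (-0.045), Mrpl30 (-0.033) and Pprc1 (-0.029) for irradiation within CD24+ cells, Mrpl52 (-0.65), Yy1 (-0.57), Mrpl50 (-0.57), Chchd1 (-0.56), Mrps17 (-0.54), Tfam (-0.51), Mrpl13 (-0.47), Mrpl38 (-0.43), Mrpl23 (-0.43), Ptcd3 (-0.42), Mrps18b (-0.39), Mrps12 (-0.38), Mrps26 (-0.32), Mrpl42 (-0.30), Mrpl30 (-0.27), Mrps30 (-0.27), Mrps27 (-0.26), Gadd45gip1 (-0.21), Mrpl36 (-0.21), Mrpl44 (-0.19), Dap3 (-0.081), Nrf1 (-0.046), Ict1 (-0.046), Mrps18c (-0.025) and Ptcd2 (-0.0081) between the irradiated gates, and Idh2 (-1.31), Mrps17 (-0.62), Yy1 (-0.56), Mrpl50 (-0.45), Mrpl30 (-0.30), Tfam (-0.28), Chchd1 (-0.23), Mrpl23 (-0.20), Mrpl13 (-0.16), Mrps26 (-0.15), Mrps18b (-0.13), Ptcd3 (-0.13), Gabpa (-0.097), Mrpl44 (-0.059), Mrps12 (-0.014) and Nrf1 (-0.011) between CD24− and non-irradiated CD24+ cells. The equal total outside Paneth products reversed Ogdh (-0.18), Gabpa (-0.12), Mrps17 (-0.098), Dld (-0.050), Idh2 (-0.049), Pprc1 (-0.049), Mrpl30 (-0.032) and Yy1 (-0.025) for irradiation within CD24+ cells, Tfam (-0.78), Yy1 (-0.72), Mrps17 (-0.72), Mrpl50 (-0.68), Mrpl52 (-0.62), Ptcd3 (-0.59), Mrpl38 (-0.58), Gadd45gip1 (-0.57), Chchd1 (-0.54), Nrf1 (-0.51), Mrps27 (-0.50), Mrps30 (-0.50), Mrps26 (-0.48), Mrps12 (-0.48), Mrpl13 (-0.47), Mrpl23 (-0.44), Mrpl44 (-0.44), Mrps18b (-0.43), Dap3 (-0.38), Mrpl19 (-0.38), Gabpa (-0.35), Mrpl17 (-0.34), Mrpl36 (-0.26), Ptcd2 (-0.19), Polrmt (-0.18), Mrpl57 (-0.18), Mrpl42 (-0.16), Ict1 (-0.16), Malsu1 (-0.14), Mrpl30 (-0.14), Mrps18a (-0.048), Mrps34 (-0.025) and Aurkaip1 (-0.016) between the irradiated gates, and Idh2 (-1.26), Mrps17 (-0.81), Yy1 (-0.75), Tfam (-0.60), Mrpl50 (-0.60), Nrf1 (-0.49), Gabpa (-0.47), Ptcd3 (-0.35), Mrps26 (-0.35), Mrpl44 (-0.33), Mrps25 (-0.29), Mrpl23 (-0.29), Chchd1 (-0.28), Mrps18b (-0.24), Mrpl17 (-0.23), Mrpl13 (-0.22), Dap3 (-0.22), Gadd45gip1 (-0.19), Mrps30 (-0.18), Mrps12 (-0.17), Mrpl30 (-0.17), Mrpl19 (-0.094), Ict1 (-0.084), Malsu1 (-0.051), Ptcd2 (-0.031) and Aurkaip1 (-0.0039) between CD24− and non-irradiated CD24+ cells. With AY761184 kept in that total it reversed Ogdh (-0.062) and Gabpa (-0.018) for irradiation within CD24+ cells, Tfam (-0.52), Yy1 (-0.45), Mrps17 (-0.45), Mrpl50 (-0.41), Mrpl52 (-0.34), Gadd45gip1 (-0.33), Ptcd3 (-0.32), Mrpl38 (-0.31), Nrf1 (-0.29), Chchd1 (-0.26), Mrps27 (-0.23), Mrps30 (-0.23), Mrps26 (-0.21), Mrps12 (-0.20), Mrpl13 (-0.19), Mrpl44 (-0.17), Mrpl23 (-0.17), Mrps18b (-0.16), Mrpl19 (-0.15), Dap3 (-0.12), Mrpl17 (-0.11) and Gabpa (-0.098) between the irradiated gates, and Idh2 (-0.86), Mrps17 (-0.43), Yy1 (-0.36), Tfam (-0.23), Mrpl50 (-0.21), Nrf1 (-0.18) and Gabpa (-0.12) between CD24− and non-irradiated CD24+ cells. Leaving out 1 library at a time changed the sign of Dld (-0.036 to 0.78), Dlst (-0.025 to 1.15), Gabpa (-0.082 to 0.56), Mrpl30 (-0.085 to 0.87), Mrps10 (-0.050 to 0.96), Mrps17 (-0.025 to 0.64), Mrps18b (-0.051 to 1.25), Mrps34 (-0.092 to 1.07), Ogdh (-0.23 to 0.71), Ppargc1a (-0.42 to 0.17) and Pprc1 (-0.19 to 0.83) for irradiation within CD24+ cells. Leaving out 1 library at a time changed the sign of Idh2 (-0.089 to 0.59) and Myc (-0.86 to 0.067) between CD24− and non-irradiated CD24+ cells. Leaving out 1 library at a time changed the sign of Idh2 (-0.24 to 0.042) between the irradiated gates.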
